A study of Mus musculus with 12 samples.

Results

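Spic and 7 genes of iron transport and storage were followed in mouse dendritic cells, in 12 RNA-seq libraries that fall into 6 groups of 2. The members are the rows with the symbols Spic, Slc40a1, Fth1, Ftl1, Tfrc, Slc11a1, Slc11a2 and Steap3, which are 8 of the 32190 symbols in each of 2 count tables. All 8 held enough counts to be tested in both tables. The members were chosen by symbol, with earlier results of these data in view and no threshold on any value, so the calls below describe these genes and are no independent support for a pattern among them.

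In the tumor experiment, dendritic cells (DCs, cells that present antigen to T cells) were sorted from tumors of MC38, a mouse colon carcinoma line, at day 7 (early stage) or day 14 (late stage). The host mice carried a Zbtb46-Tdtomato reporter, which marks cells that express Zbtb46, a transcription factor of conventional DCs, and their genotype label is WT. The culture experiment used bone marrow-derived DCs (BMDCs) from WT mice and from mice labelled Pde5-/-, a knockout of the phosphodiesterase that degrades cGMP. The cells of both genotypes were left unstimulated or received 200 ng/ml lipopolysaccharide (LPS), the bacterial ligand of Toll-like receptor 4, for 12 h, and all carry a time label of 9 days. No source used here gives the ages of the mice, the culture factors of the BMDCs or the sorting gate. Nothing in the labels shows that the libraries of a group are separate animals or cultures. Their spread, on which the p-values rest, may be technical. In bulk RNA, fewer cells of a type and less RNA per cell cannot be told apart.

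Cells take up transferrin-bound iron through the transferrin receptor, reduce it in endosomes with a metalloreductase and move it to the cytosol through a divalent metal transporter. Iron that is not used is stored in ferritin, a shell of heavy and light chains, or leaves the cell through ferroportin, the known iron exporter of vertebrates. Iron regulatory proteins read the iron supply: when iron is scarce they bind hairpins called iron-responsive elements, which blocks translation from elements in a 5′ UTR and stabilises mRNAs that carry them in the 3′ UTR. Spic is an Ets-family transcription factor known from the red pulp macrophages of the spleen, which recycle iron from old red blood cells, and heme is known to induce it.

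Total counts ranged from 14.2 to 19.7 M per library, and levels are given as CPM, counts scaled by the library's total. The DC factor Zbtb46 stood at 21.8 to 44.1 CPM in the tumoral libraries and at 124 to 254 CPM in the BMDCs, and Flt3, a DC growth factor receptor, was detected in all 12 libraries. Pde5a, which the knockout label names, had 55 and 37 counts in unstimulated WT cells and 47 and 61 in unstimulated knockout-labelled cells. With LPS it had 52 and 20 counts in WT and 22 and 43 in knockout-labelled cells, so these counts did not separate the genotypes, and the libraries are called knockout-labelled throughout. The summed level of 16 macrophage markers was 9970 and 4851 CPM in the early tumoral libraries and 9098 and 10516 CPM in the late ones, with none of the 16 at 0. In the BMDCs the same sum lay between 370 and 995 CPM. The summed level of 10 erythroid markers came to 59.9 CPM in early tumoral replicate 1, where the adult globin gene Hbb-bs had 544 counts, to 2.73 CPM in early replicate 2 and to at most 4.80 CPM in the late libraries, and in the BMDCs to at most 1.54 CPM with Hbb-bs at 0.

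Among the 8 members, 4 carry an iron-responsive element in a UTR by a search for its letters and stem: a C, 5 bases, a loop of CAGTG and 1 base other than G, and 5 bases that pair with the first 5. Of 21877 protein-coding genes of GENCODE M21 (GRCm38), 121 (0.553%) have such a match in a UTR. The elements are shown because they separate the members into those with a match in the 5′ UTR, those with matches in the 3′ UTR and those in which this search found none. Each window of 30 bases is written 5′ to 3′ on the strand of the gene, with the loop in capitals.
Fth1 5′ UTR: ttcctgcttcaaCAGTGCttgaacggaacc
Ftl1 5′ UTR: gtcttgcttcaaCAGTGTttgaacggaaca
Slc40a1 5′ UTR: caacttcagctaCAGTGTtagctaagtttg
Tfrc 3′ UTR, element 1: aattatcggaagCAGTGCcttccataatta
Tfrc 3′ UTR, element 2: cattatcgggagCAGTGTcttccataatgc
Tfrc 3′ UTR, element 3: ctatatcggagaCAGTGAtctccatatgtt
Tfrc 3′ UTR, element 4: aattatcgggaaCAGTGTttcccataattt

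The Fth1 window lies at chr19:9982732-9982761 on the plus strand in exon 1, the Ftl1 window at chr7:45459778-45459807 on the minus strand and the Slc40a1 window at chr1:45925464-45925493 on the minus strand. The 4 Tfrc windows lie in exon 19 on the plus strand, at chr16:32631219-32631248, chr16:32631598-32631627, chr16:32631663-32631692 and chr16:32631710-32631739. The ferritin windows share 26 of 30 bases with each other, while the Slc40a1 window shares 13 of 30 with each of them. Among the Tfrc windows, pairs share 18 to 25 of 30 bases. No match was found in the UTRs of Spic, Slc11a1, Slc11a2 and Steap3, which says only that these letters are not there. An element with another form of stem or loop would be missed, so these 4 members may still carry one. In the promoters that RefSeq entries (GRCm38.p6) give for 6 members, 3 motifs were searched on both strands: TGACNNNGC (an antioxidant response core, in 12.4% of 32851 promoters), GAGGAAGT (an Ets site, in 3.2%) and GAAANNGAA (part of an interferon element, in 8.56%). None of the 3 matched in these windows. Slc40a1 and Slc11a2 had no promoter entry and were not searched. With so few promoters the lack of a match does not set these members apart. Sites outside the windows would be missed.

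Set side by side, the 6 comparisons called 5 member differences in all (adjusted p under 0.05, edgeR quasi-likelihood test, adjusted over all genes tested). With LPS in WT BMDCs 4 of 8 members were called: Spic was higher, and Slc40a1, Tfrc and Ftl1 were lower. Of all 13072 genes tested there, 37.6% were called, 20.0% higher and 17.6% lower, so a call as such was common. Scaled by library totals alone, 1689 genes were called higher and 3728 lower, against 2609 and 2301 with TMM scaling. Ftl1 was the 1 of 8 members called between knockout-labelled and WT unstimulated cells, where it was lower, against 18.0% of all genes (12.0% higher, 5.98% lower). With library totals alone that split was 1282 higher and 1301 lower, against 1575 and 782. These 2 comparisons share the unstimulated WT libraries.

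In the other 4 comparisons edgeR called 0 of 8 members. Between late and early tumoral DCs the background was 0.0230% of 13040 genes (0% higher, 0.0230% lower). There 3 of 8 members had an unadjusted p under 0.05, against 1438 (11%) of all genes. DESeq2 called 3 members and 311 (2.38%) of all genes, and limma-voom 0 and 24 (0.184%). With LPS in knockout-labelled cells the background was 0%. An unadjusted p under 0.05 was found for 3 of 8 members and 2800 (21.4%) of all genes. DESeq2 called 2 members and 793 (6.07%) of all genes, and limma-voom 0 and 0. Between knockout-labelled and WT cells under LPS the background was again 0%, with an unadjusted p under 0.05 for 5 of 8 members and 1330 (10.2%) of all genes. DESeq2 called 1 member and 150 (1.15%) of all genes, and limma-voom 0 and 0. The interaction, which asks whether the LPS difference depends on the genotype label, called 4.48% of all genes (0.566% higher, 3.91% lower). Here 4 of 8 members and 2789 (21.3%) of all genes had an unadjusted p under 0.05. DESeq2 called 3 members and 1082 (8.28%) of all genes, and limma-voom 0 and 504 (3.86%). The number of called members in these 4 comparisons thus differed between tools.

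**Figure D1:**
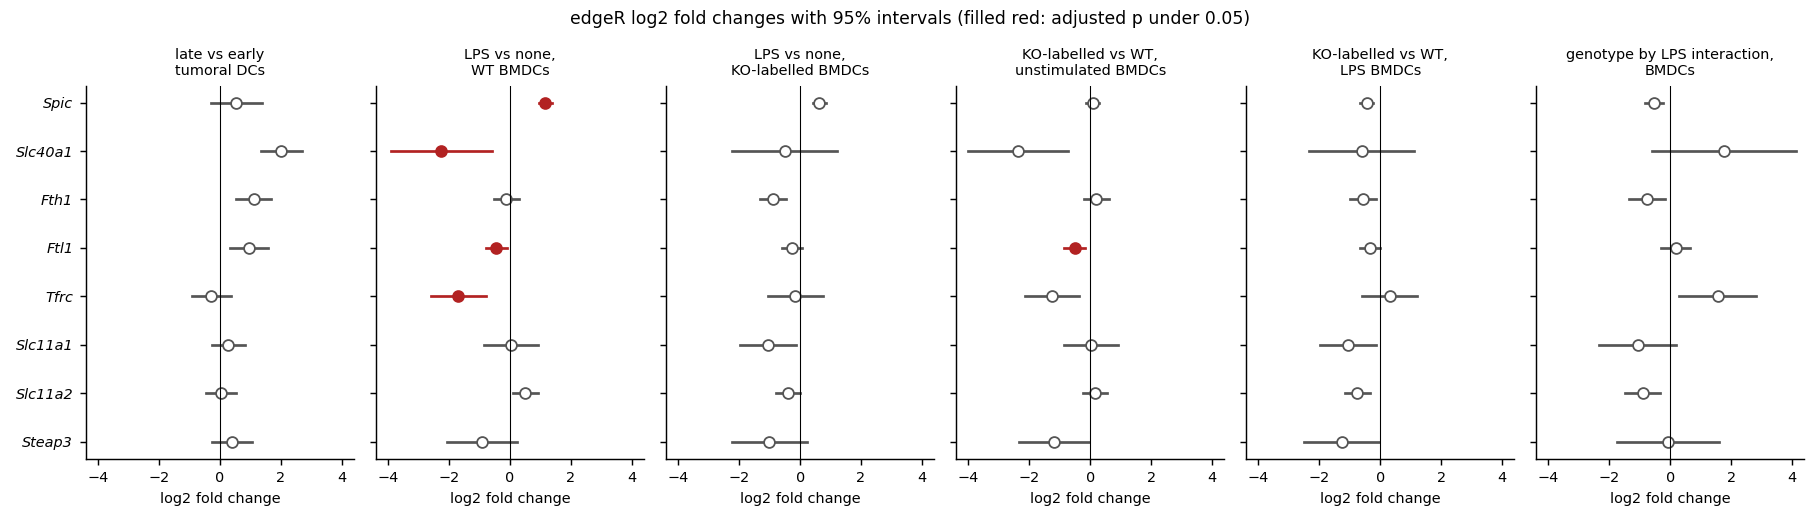
Log2 fold changes (horizontal axes) of the 8 members in the 6 comparisons, as circles with 95% intervals from the edgeR fit; filled red circles have an adjusted p under 0.05. The red circles are Spic, Slc40a1, Ftl1 and Tfrc for LPS in WT cells and Ftl1 for the knockout label without stimulation, and the Slc40a1 intervals in the BMDC panels are the widest.

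Spic (chromosome 10, 88674772 to 88685015, minus strand) was the member with the closest replicates in the BMDCs. Unstimulated WT libraries held 70.7 and 67.5 CPM, and WT libraries with LPS 131 and 138 CPM. Without stimulation the knockout-labelled libraries stood at 66.1 and 70.1 CPM, overlapping WT, and with LPS at 106 and 94.4 CPM. The LPS libraries of both genotypes thus lay above all unstimulated libraries, and the WT ones above the knockout-labelled ones.

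In WT cells Spic rose with LPS by a log2 fold change of 1.16 (SE 0.0924, edgeR adjusted p = 0.000282), a 2.23-fold difference that was called in all 14 alternative settings. In knockout-labelled cells the log2 difference was 0.63 (SE 0.0918, edgeR adjusted p = 0.0520), which 5 of 14 alternatives called. Under LPS the knockout-labelled libraries differed from WT by -0.45 (95% interval -0.66 to -0.24, edgeR adjusted p = 0.205). The interaction itself was -0.53 (95% interval -0.83 to -0.24, edgeR adjusted p = 0.0564), and 1 of its 17 alternatives called it. Unstimulated cells differed by 0.08 between genotype labels, a value whose sign turned to -0.02 when libraries were scaled by their totals alone.

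Tumoral DCs held less Spic: 7.05 and 10.5 CPM early and 13.8 and 10.4 CPM late. The stages overlapped, and the log2 difference was 0.54 (SE 0.368, edgeR adjusted p = 0.619). Across the 6 groups the order by mean was WT with LPS, knockout-labelled with LPS, WT unstimulated, knockout-labelled unstimulated, late tumoral and early tumoral. The neighbours WT and knockout-labelled unstimulated overlapped, as did the tumoral stages, and levels across the 2 experiments were not tested. The macrophage markers did not follow this order, since their sum was several times higher in the tumoral libraries than in the BMDCs. Beside the LPS difference in WT cells, 9 of 15 tested macrophage markers were called higher and 2 lower, against 20.0% and 17.6% of all genes. Siglec1 went up from 4.03 and 4.34 to 38.3 and 19.7 CPM, and Mrc1 down from 14.2 and 11.8 to 4.60 and 3.46 CPM. Of 8 tested neutrophil markers 5 were called lower, beside the same 17.6% of all genes. Their sums were 117 and 188 CPM without and 57.8 and 65.2 CPM with LPS. The part of either list in the LPS differences of Spic and the other members was not tested.

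Spib, an Ets relative that acts in B cells and plasmacytoid DCs, also rose with LPS in WT cells, by 1.19 (SE 0.176, edgeR adjusted p = 0.00158), from 287 and 214 to 526 and 470 CPM. The genes whose log2 CPM followed Spic most closely over the 8 BMDC libraries were Tbrg1 (Pearson r = 0.988), Prdm2 (0.980), Wdr33 (0.979), Scube3 (0.978) and Tmem176b (0.973), out of 10081 genes compared. These libraries share the 4 groups that set most of the spread, so the coefficients are descriptive. Of the 5, Scube3 spanned 4.32-fold between libraries and Tbrg1, Prdm2, Wdr33 and Tmem176b 1.26 to 1.51-fold.

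**Figure D2:**
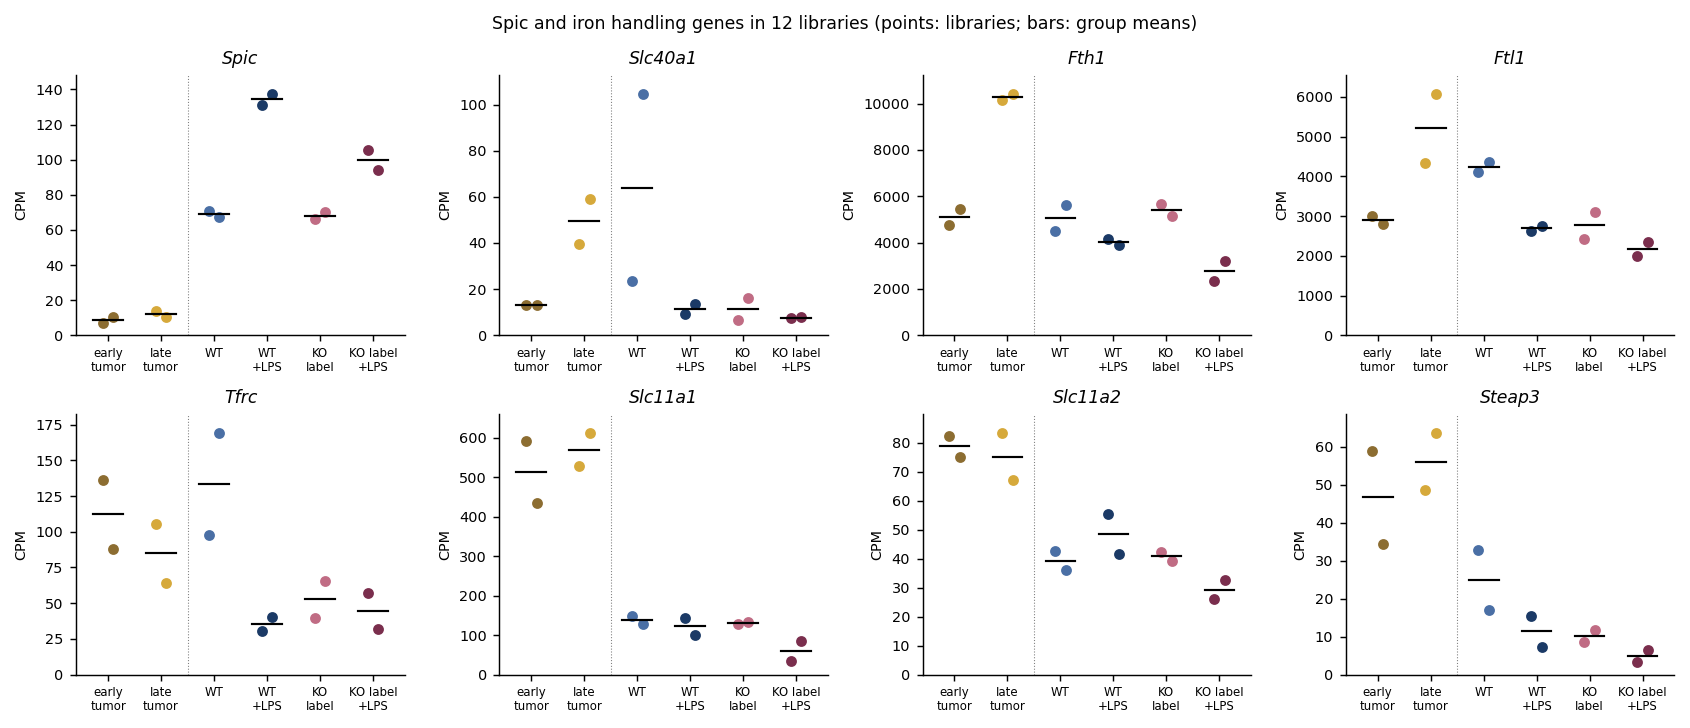
Level in CPM (vertical axes, from 0) of the 8 members in each of the 12 libraries as points, with the group mean as a bar; the dotted line separates the tumoral DCs from the BMDCs. Spic is higher in all LPS libraries, Slc40a1 has 1 unstimulated WT library at 105 CPM against 23.3 CPM in the other, and Slc11a1 is highest in the tumoral DCs.

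Slc40a1 (chromosome 1, 45908068 to 45926523, minus strand) encodes ferroportin. In tumoral DCs it stood at 13.3 and 13.3 CPM early and at 39.7 and 59.1 CPM late, so that both late libraries lay above both early ones. Its log2 difference was 2.01 (SE 0.294, edgeR adjusted p = 0.0586), or 4.02-fold, the largest among the members in this comparison. Of 13 alternatives 7 called it. Calls over all genes were 3 of 13040 as reported, 311 with DESeq2 and 689 of 18539 without a filter. The Slc40a1 value was 1.91 without early replicate 1 and 2.12 without early replicate 2. It was 2.28 without late replicate 1 and 1.64 without late replicate 2. The direction was the same in all 13, and the value without the globin-rich early library was 1.91.

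Of the 16 macrophage markers none was called between the stages, 11 had a positive log2 difference, and Siglec1, Marco, Timd4, Cd5l and Lyve1 a negative one. The 2 with the largest differences went opposite ways. Vcam1, which red pulp macrophages also express, stood at 64.6 and 65.0 CPM early and 184 and 206 CPM late, and Timd4, a receptor of resident macrophages, at 10.6 and 19.2 CPM early and 3.98 and 4.31 CPM late. C1qa stood at 2438 and 839 CPM early and 2094 and 2647 CPM late. Of the 10 T and NK cell markers 1 was called lower, against 0.0230% of all genes. They summed to 1062 and 555 CPM early and 173 and 77.2 CPM late. The part of these lists in the member differences between stages was not tested.

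The 2 unstimulated WT BMDC libraries held 23.3 and 105 CPM of Slc40a1 (394 and 1687 counts), the widest gap between replicates of any member. With LPS the WT libraries held 9.42 and 13.6 CPM. Knockout-labelled libraries held 6.64 and 16.3 CPM without stimulation and 7.42 and 7.80 CPM with LPS. Both unstimulated WT libraries were therefore above the other 6, but by very different margins.

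With LPS in WT cells Slc40a1 fell by 2.26 on the log2 scale (SE 0.697, edgeR adjusted p = 0.0419). This call rested on unstimulated WT replicate 2, without which the value was -0.84 (adjusted p = 0.240). It was also lost without LPS WT replicate 1 (-2.02, adjusted p = 0.172) and without LPS WT replicate 2 (-2.54, adjusted p = 0.104), and with limma-voom (-1.92, adjusted p = 0.105). Knockout-labelled unstimulated cells differed from the same WT libraries by -2.37 (SE 0.697, edgeR adjusted p = 0.0584), and by -0.95 (adjusted p = 0.266) without unstimulated WT replicate 2, while the call was made (-3.07, adjusted p = 0.0119) without unstimulated WT replicate 1. In the remaining comparisons the 95% intervals spanned 0: -2.23 to 1.22 for LPS in knockout-labelled cells, -2.35 to 1.12 between genotype labels under LPS and -0.62 to 4.12 for the interaction.

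The genes closest to Slc40a1 over the 8 BMDC libraries were Cat (Pearson r = 0.992), Zc3hc1 (0.991), Gclm (0.987), Emg1 (0.986) and Serp1 (0.985). Cat encodes catalase, which removes hydrogen peroxide, and Gclm a subunit of the enzyme that starts glutathione synthesis. Gclm stood at 90.2 and 215 CPM in unstimulated WT replicates 1 and 2 and at 31.7 to 65.1 CPM in the other 6 libraries. Cat stood at 174 and 277 CPM in those WT replicates and at 116 to 146 CPM elsewhere. The coefficients thus also reflect that WT replicate 2 was the highest library for both genes.

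Fth1 (chromosome 19, 9980598 to 9985098, plus strand) and Ftl1 (chromosome 7, 45457944 to 45459884, minus strand) encode the ferritin heavy chain, which oxidises iron, and light chain, which aids its deposition in the shell. They were by far the most abundant members per length. In CPM per kilobase of their first GENCODE transcript, Fth1 averaged 5481 ± 525 early and 11078 ± 191 late in tumoral DCs (SD, n = 2), and Ftl1 3002 ± 141 and 5381 ± 1272. On the same scale no other member averaged above 246 in any group, which was Slc11a1 in late tumoral DCs.

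Fth1 held 4747 and 5437 CPM early and 10166 and 10417 CPM late, a log2 difference of 1.11 (SE 0.248, edgeR adjusted p = 0.180). Ftl1 held 3002 and 2809 CPM early and 4338 and 6079 CPM late, a log2 difference of 0.95 (SE 0.267, edgeR adjusted p = 0.275). The stages did not overlap for either chain. DESeq2 called both (adjusted p = 0.00265 for Fth1 and 0.0447 for Ftl1) and 311 of all 13040 genes. Without a filter on low counts edgeR called both (adjusted p = 0.000497 and 0.00559) and 689 of all 18539 genes. Without early replicate 2 the Fth1 value was 1.33, and without late replicate 2 the Ftl1 value was 0.64.

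Together the chains took 0.775 and 0.825% of all counts in the early libraries and 1.45 and 1.65% in the late ones. Hmox1, heme oxygenase 1, which frees iron from heme, stood at 696 and 905 CPM early and 1781 and 2248 CPM late, a log2 difference of 1.43 (SE 0.286, edgeR adjusted p = 0.129). Slc40a1, Fth1, Ftl1 and Hmox1 were thus each higher in both late than in both early libraries, and edgeR called none of them. The share of all genes that were higher in both late libraries was not counted, so these values do not set the genes apart.

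In BMDCs Fth1 held 4519 and 5611 CPM in unstimulated WT and 5677 and 5146 CPM in unstimulated knockout-labelled libraries. With LPS it held 4174 and 3899 CPM in WT and 2324 and 3185 CPM in knockout-labelled libraries, the latter below all others. LPS in WT cells gave a log2 difference of -0.12 (edgeR adjusted p = 0.633), which turned to 0.02 without unstimulated WT replicate 2. In knockout-labelled cells it was -0.90 (SE 0.186, edgeR adjusted p = 0.0750). DESeq2 called this difference (adjusted p = 7.46e-05) and 793 of all genes. Without a filter edgeR called it and 587 of all 20339 genes. The interaction of -0.78 (95% interval -1.37 to -0.18, edgeR adjusted p = 0.133) was not called.

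Ftl1 held 4100 and 4372 CPM in unstimulated WT, the highest of the BMDCs, and 2631 and 2762 CPM in WT with LPS. Knockout-labelled libraries held 2427 and 3112 CPM unstimulated and 2003 and 2343 CPM with LPS. With LPS in WT cells Ftl1 fell by 0.45 on the log2 scale (SE 0.150, edgeR adjusted p = 0.0440). That call was lost when any 1 of the 4 libraries was left out: the value was -0.47 (adjusted p = 0.0715) and -0.42 (0.115) without unstimulated WT replicates 1 and 2, and -0.41 (0.201) and -0.48 (0.135) without LPS WT replicates 1 and 2. In unstimulated cells Ftl1 was lower under the knockout label by -0.51 (SE 0.150, edgeR adjusted p = 0.0471). Here the call was lost without unstimulated WT replicate 1 (-0.54, adjusted p = 0.0740) or 2 (-0.49, adjusted p = 0.132) and without knockout-labelled replicate 1 (-0.38, adjusted p = 0.286).

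The balance of the chains also differed. The ratio of Fth1 to Ftl1 counts was 1.10 and 1.28 in WT and 2.34 and 1.65 in knockout-labelled unstimulated libraries. With LPS it was 1.59 and 1.41 in WT and 1.16 and 1.36 in knockout-labelled libraries. The share of counts taken by both chains was 0.862 and 0.998% in unstimulated WT, 0.810 and 0.826% in unstimulated knockout-labelled, 0.681 and 0.666% in WT LPS and 0.433 and 0.553% in knockout-labelled LPS libraries. Unstimulated knockout-labelled cells thus had the highest ratios of the BMDCs at a share slightly below WT, and this ratio was not tested.

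**Figure D3:**
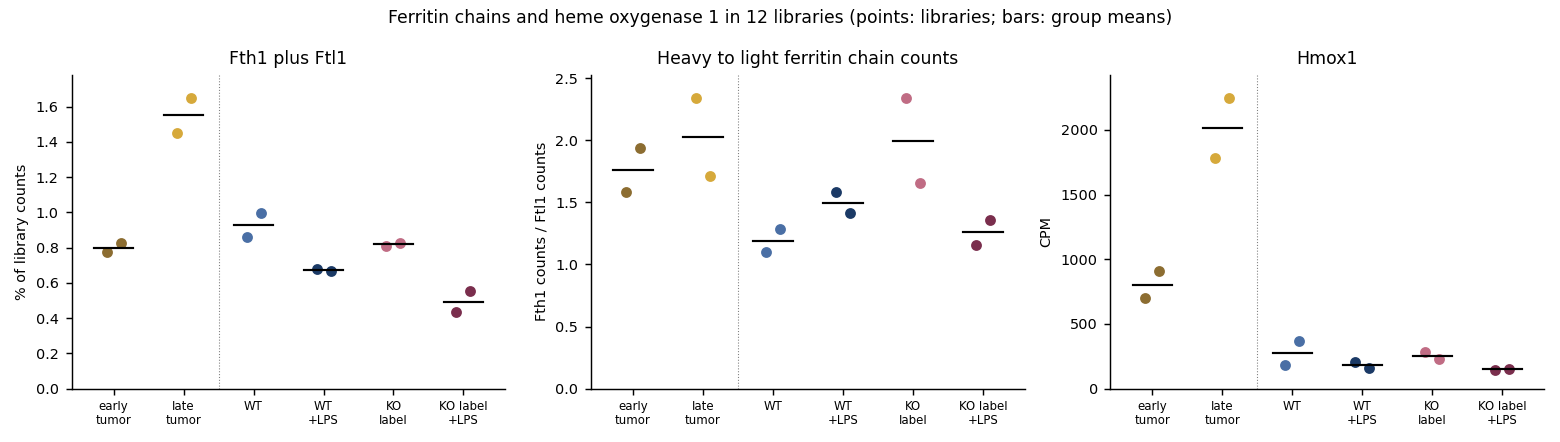
Share of library counts taken by Fth1 and Ftl1 (left, %), ratio of Fth1 to Ftl1 counts (middle) and Hmox1 in CPM (right) in each of the 12 libraries as points, with group means as bars and axes from 0. The late tumoral libraries hold the highest ferritin shares (1.45 and 1.65%) and Hmox1 levels (1781 and 2248 CPM), and unstimulated knockout-labelled BMDCs hold the highest ratios of the BMDCs (2.34 and 1.65).

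Ferritin genes have many copies in the mouse genome, and reads of the copies can be split or lost in counting. Ftl1-ps1 and Ftl1-ps2 had identical counts in all 12 libraries, at 0.270 to 0.452% of the Ftl1 count. Adding the copies to their parent genes changed no call. Ftl1 also overlaps Gm10252 on the opposite strand and Gm22133, not analysed here, and Slc11a2 overlaps Gm5475 on the opposite strand, which had at most 8 counts in any library.

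Tfrc (chromosome 16, 32608920 to 32632794, plus strand) encodes the transferrin receptor, which brings iron-loaded transferrin into the cell. It held 97.7 and 169 CPM in unstimulated WT BMDCs and 30.8 and 40.2 CPM in WT cells with LPS. Knockout-labelled libraries held 39.4 and 65.7 CPM unstimulated and 57.4 and 32.2 CPM with LPS. Both unstimulated WT libraries were above the other 6, as for Slc40a1 and Ftl1.

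With LPS in WT cells Tfrc fell by 1.70 on the log2 scale (SE 0.381, edgeR adjusted p = 0.0137). The value was -1.28 (adjusted p = 0.0829) without unstimulated WT replicate 2 and -1.52 (adjusted p = 0.0783) without LPS WT replicate 1, and the call held in 11 of 14 alternatives. The knockout label in unstimulated cells, which shares the WT libraries, gave -1.24 (SE 0.373, edgeR adjusted p = 0.0626). In knockout-labelled cells LPS gave -0.15 (95% interval -1.04 to 0.74), with the sign turned to 0.24 without unstimulated knockout-labelled replicate 2. The interaction was 1.55 (95% interval 0.29 to 2.81, edgeR adjusted p = 0.156). All 10 markers of cycling cells were negative with LPS in WT cells (median -0.63, 2 called). All 10 were negative for the unstimulated knockout label (-0.48, 1 called) and positive for the interaction (0.46, 0 called). With LPS in knockout-labelled cells 4 were positive and 6 negative. Of all genes 48.1 to 49.3% were positive in these comparisons. The part of these markers in the Tfrc values was not tested.

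Slc40a1 and Tfrc carry their elements at opposite ends of the mRNA, and both were lower with LPS in WT cells. Their count ratio, Slc40a1 to Tfrc, was 0.239 and 0.619 in unstimulated WT and 0.306 and 0.337 in WT LPS libraries, which lie inside the unstimulated range. In tumoral DCs, where Tfrc held 137 and 87.9 CPM early and 105 and 64.4 CPM late, the ratio was 0.0972 and 0.151 early and 0.378 and 0.918 late. The tumoral stages did not overlap in this ratio, although Tfrc itself overlapped (log2 difference -0.29, edgeR adjusted p = 0.722). The part of the elements in these mRNA levels and ratios was not tested.

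Steap3 (chromosome 1, 120190757 to 120272705, minus strand), the endosomal ferrireductase that works behind the transferrin receptor, was low in BMDCs. It held 32.8 and 17.0 CPM in unstimulated WT, 15.5 and 7.33 CPM in WT LPS, 8.63 and 11.8 CPM in unstimulated knockout-labelled and 3.22 and 6.43 CPM in knockout-labelled LPS libraries. The unstimulated WT libraries were again the highest, and the knockout-labelled LPS libraries the lowest. No comparison called it in edgeR: the log2 differences were -0.93 (adjusted p = 0.177) for LPS in WT, -1.01 (0.312) for LPS in knockout-labelled cells, -1.19 (0.136) for the knockout label unstimulated and -1.27 (0.487) under LPS. Tumoral libraries held 58.9 and 34.3 CPM early and 48.5 and 63.5 CPM late, which overlapped.

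Slc11a1 (chromosome 1, 74375195 to 74386062, plus strand) encodes NRAMP1, which pumps divalent metals out of the phagosome of phagocytes. It held 593 and 435 CPM in early and 528 and 612 CPM in late tumoral DCs, and the stages overlapped (log2 difference 0.27, edgeR adjusted p = 0.698). The BMDCs held 149 and 127 CPM in unstimulated WT, 144 and 101 CPM in WT LPS, 129 and 133 CPM in unstimulated knockout-labelled and 35.2 and 84.6 CPM in knockout-labelled LPS libraries. All 4 tumoral libraries were above all BMDC libraries, a difference between separate experiments that was not tested.

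Within the BMDCs only the knockout-labelled LPS libraries of Slc11a1 lay below the rest. The log2 difference for LPS in knockout-labelled cells was -1.05 (SE 0.383, edgeR adjusted p = 0.186). It depended on replicate 1 of that group: it was -0.54 (adjusted p = 0.444) without it and -1.83 (adjusted p = 0.0453) without replicate 2. Between genotype labels under LPS the values were likewise -1.05 (adjusted p = 0.447), -0.55 (adjusted p = 1) without knockout-labelled LPS replicate 1 and -1.84 (adjusted p = 0.0300) without replicate 2. The macrophage markers were lowest in the same library, at 370 CPM in sum against 710 CPM in its replicate; their part in this value was not tested. For LPS in WT (0.03) and for the knockout label without stimulation (0.02) the sign depended on the scaling.

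Slc11a2 (chromosome 15, 100387898 to 100425072, minus strand) encodes DMT1, which carries iron from the endosome or the gut lumen into the cytosol. Tumoral libraries held 82.4 and 75.1 CPM early and 83.3 and 67.1 CPM late, with a log2 difference of 0.03 whose sign turned with scaling by library totals. BMDC libraries held 42.5 and 36.1 CPM in unstimulated WT, 55.5 and 41.7 CPM in WT LPS, 42.2 and 39.2 CPM in unstimulated knockout-labelled and 25.9 and 32.6 CPM in knockout-labelled LPS cells. The last group was again below all other BMDC libraries, and the WT groups overlapped.

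LPS gave Slc11a2 log2 differences of opposite sign in the genotype labels: 0.51 in WT (SE 0.176, edgeR adjusted p = 0.0519) and -0.40 in knockout-labelled cells (SE 0.178, edgeR adjusted p = 0.238). The interaction was -0.91 (95% interval -1.48 to -0.33, edgeR adjusted p = 0.0831) and negative in all 17 alternatives, 2 of which called it. Between genotype labels under LPS the value was -0.75 (SE 0.178, edgeR adjusted p = 0.277). DESeq2 called the LPS difference in WT (adjusted p = 0.0408), the interaction (0.0304) and the difference under LPS (0.0308).

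Over all 8 members, the knockout-labelled LPS libraries had the lowest group mean of Slc40a1, Fth1, Ftl1, Slc11a1, Slc11a2 and Steap3 among the 6 groups. The share of all genes with their lowest mean in that group was not counted. Levels across the tumoral and BMDC experiments were not tested. Against WT under LPS 7 of 8 members had a negative log2 difference, while 48.6% of all genes had a positive one. The member median was -0.59, against -0.01 over all genes. Of 15 tested macrophage markers 14 were also negative there, with a median of -0.67. No gene at all was called in that comparison by edgeR (0%), while 1330 (10.2%) had an unadjusted p under 0.05 and DESeq2 called 150 (1.15%). Macrophage marker medians were -0.67 for LPS in knockout-labelled cells and -1.58 for the interaction. They were 0.27 between the stages, 1.24 for LPS in WT and 0.99 for the unstimulated knockout label. The part of these markers in the member values was not tested. The medians of the members in the other comparisons were 0.47 for late against early tumoral DCs (0.01 over all genes), -0.29 for LPS in WT (-0.02), -0.45 for LPS in knockout-labelled cells (-0.02), -0.24 for the knockout label unstimulated (-0.01) and -0.31 for the interaction (-0.01).

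A wider list of 53 iron genes that are not members, of which 43 tumoral and 44 BMDC rows were tested, gave the surroundings of these values. Between the tumoral stages edgeR called 0 of the 43, DESeq2 1 (2.38% of all genes) and limma-voom 0 (0.184%). An unadjusted p under 0.05 was found for 6 of 43, against 1438 of all 13040 genes (11%). Of the 43, 34 had a positive log2 difference, against 51.3% of all genes, and the median was 0.27 against 0.01. By role, the positive ones were 8 of 8 in uptake and reduction, 1 of 3 in export and oxidation, 5 of 5 in heme breakdown and transport, 7 of 8 in heme synthesis, 6 of 9 regulators and chaperones, 6 of 8 in mitochondrial iron and 1 of the 2 relatives of Spic. Bach1, the heme-sensitive repressor of Hmox1, stood at 220 and 321 CPM early and 163 and 122 CPM late (log2 difference -0.85, edgeR adjusted p = 0.370). Ncoa4, the receptor that takes ferritin to the lysosome, stood at 67.2 and 68.9 CPM early and 104 and 84.7 CPM late (0.57, edgeR adjusted p = 0.404). Aco1 and Ireb2, which encode the iron regulatory proteins, had log2 differences of 0.25 and -0.21 (edgeR adjusted p = 0.704 and 0.742).

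With LPS in WT cells 16 of 44 wider genes were called, 7 higher and 9 lower, which is 36.4% against 37.6% of all genes, with a median of -0.22. Spib, Iscu, Cpox and Hamp had the smallest adjusted p among those that rose. Iscu, the scaffold for iron-sulfur clusters, went from 180 and 147 to 218 and 246 CPM (log2 fold change 0.71, edgeR adjusted p = 0.00526), and Cpox, an enzyme of heme synthesis, rose by 0.60 (edgeR adjusted p = 0.00573). Hamp, which encodes hepcidin, the hormone that removes ferroportin from the cell surface, had 0 counts in both unstimulated WT libraries and 10 and 13 in the LPS libraries. The pooled LPS level, below 1 CPM, was 7.19-fold above a floor of 3 counts over the unstimulated group. Counting error of the few LPS counts is left out of that value.

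Among the wider genes that fell, Cd163, Glrx5, Trf and Nfe2l2 had the smallest adjusted p. Cd163, the macrophage receptor for haemoglobin bound to haptoglobin, went from 33 and 80 counts to 2 and 1, a ratio of 40.1 (95% interval of 13.4 to 198 from counting error only; edgeR adjusted p = 0.00163). Glrx5, a mitochondrial glutaredoxin, fell by 0.97 on the log2 scale (edgeR adjusted p = 0.00362), and Trf, transferrin, by 1.06 (edgeR adjusted p = 0.00396), from 137 and 120 to 64.3 and 43.1 CPM. Nfe2l2, which encodes the oxidative stress factor NRF2, fell by 0.40 (edgeR adjusted p = 0.0163). Hmox1 stood at 184 and 370 CPM unstimulated and at 203 and 158 CPM with LPS and was not called (-0.41, edgeR adjusted p = 0.324). Bach1 fell by 0.39 (edgeR adjusted p = 0.0171), and Ireb2 (0.27, 0.0650), Aco1 (-0.35, 0.0606) and Ncoa4 (0.09, 0.545) had the log2 differences and adjusted p in parentheses.

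For the knockout label in unstimulated cells 10 of 44 wider genes were called, 7 higher and 3 lower, or 22.7% against 18.0% of all genes. Slc25a37, mitoferrin 1, which imports iron into mitochondria, rose from 25.6 and 36.5 to 60.8 and 51.6 CPM (log2 fold change 0.97, edgeR adjusted p = 0.00678). Slc39a14, a zinc and iron importer, rose by 0.67 (edgeR adjusted p = 0.00919). Cp, ceruloplasmin, which oxidises exported iron, rose by 1.53 (edgeR adjusted p = 0.0208), from 1.30 and 1.36 to 4.32 and 2.84 CPM. Hamp, with 9 and 10 counts, had a pooled level 5.47-fold above the floor of 3 counts, with counting error left out. The 3 that fell were Ncoa4, from 242 and 217 to 134 and 156 CPM (-0.56, edgeR adjusted p = 0.00943), Bach1 (-0.43, edgeR adjusted p = 0.0221) and Fech, the enzyme that inserts iron into heme (-0.43, edgeR adjusted p = 0.0345). Hmox1 (-0.01), Ireb2 (0.10) and Aco1 (-0.35) were not called.

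In the same unstimulated comparison 4 of 15 tested macrophage markers were called higher and 1 lower, against 12.0% and 5.98% of all genes. C1qa went up from 6.22 and 3.35 to 53.2 and 31.3 CPM, and Mrc1 down from 14.2 and 11.8 to 4.26 and 7.01 CPM. The part of the macrophage markers in the iron genes was not tested. In the 3 remaining comparisons edgeR called 0 of the 44 wider genes. For LPS in knockout-labelled cells 15 had an unadjusted p under 0.05, against 21.4% of all genes, and DESeq2 called 7 (6.07% of all genes) and limma-voom 0 (0%). Between genotype labels under LPS these counts were 8 (10.2% of all genes), 1 (1.15%) and 0 (0%). For the interaction they were 11 (21.3% of all genes), 2 (8.28%) and 1 (3.86%). The median log2 differences were -0.20 for LPS in knockout-labelled cells, -0.09 between genotype labels under LPS and -0.01 for the interaction. Ncoa4 had log2 differences of 0.50, -0.15 and 0.41 there, Hmox1 of -0.68, -0.28 and -0.27, Bach1 of -0.06, -0.11 and 0.33, Ireb2 of 0.32, 0.15 and 0.05 and Aco1 of -0.14, -0.14 and 0.21.

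**Figure D4:**
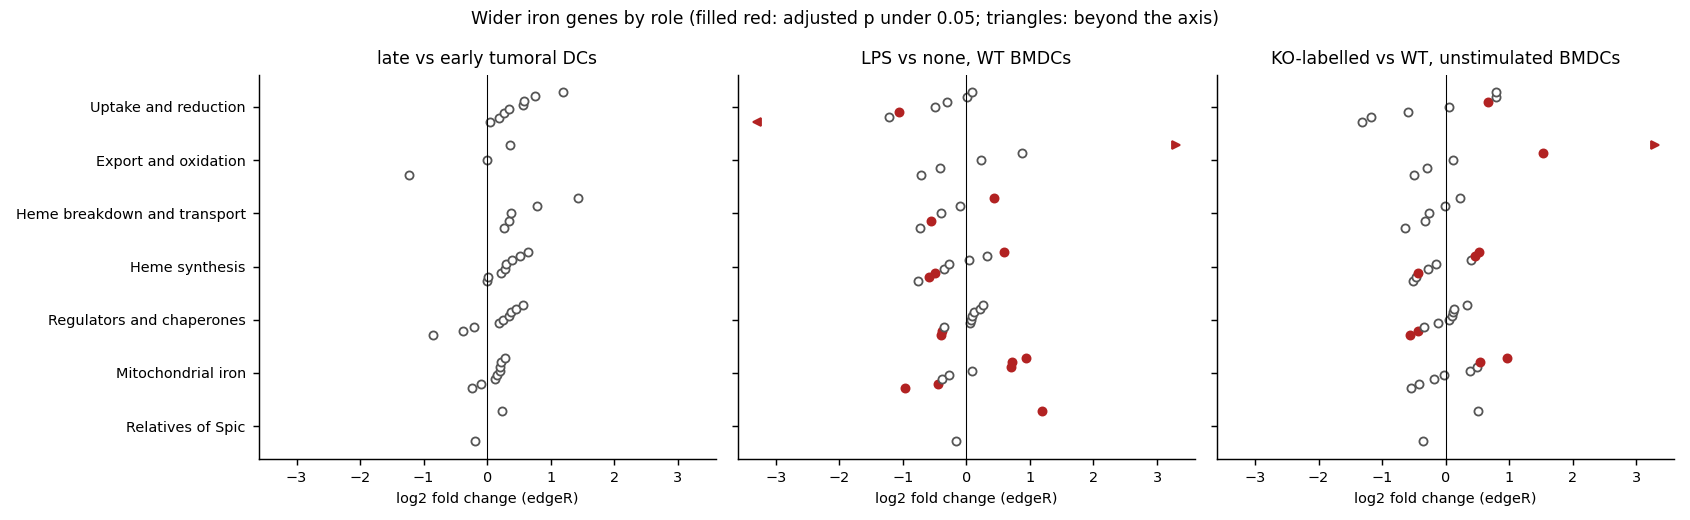
Log2 fold change (horizontal axis) of each tested gene of the wider iron list, by role, in 3 comparisons; filled red symbols have an edgeR adjusted p under 0.05 and triangles lie beyond the axis (Cd163 and Hamp). Between the tumoral stages 34 of 43 circles lie above 0 and none is red, and with LPS in WT cells 7 red symbols lie above and 9 below 0.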

How the data were processed

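RNA was measured in 12 mouse libraries. Per the labels' protocols libraries were made from total RNA with a TruSeq kit; the extraction text names another tissue, so RNA extraction from these cells is not described. The authors deposited raw counts per gene symbol. The submitters' processing notes name the mm10 build and, in no stated role, featureCounts 2.0.1, HISAT2 2.2.1 and fastp 0.12.4. The annotation, the strand setting and the handling of multiply mapping reads were not given in the sources used here, so reads of gene copies and of overlapping genes may be split between them.

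Members and lists were chosen with earlier results of these data known. The tumoral and BMDC tables were fitted apart in R 4.3.3 with edgeR 4.0.16: filterByExpr (minimum count 10), TMM (factors 0.933 to 1.11) and the robust quasi-likelihood test, with 1 BMDC fit for all 5 BMDC contrasts and p-values adjusted by Benjamini-Hochberg over every tested gene. A call is an adjusted p under 0.05. The SE is the log2 fold change divided by the root of F, and 95% intervals use its t distribution. Steps were tested on simulated counts. Alternatives were other scalings, other filters, DESeq2 1.42.0, limma-voom (limma 3.58.1), a replicate block, fits of the 4 libraries compared, summed ferritin symbols and leaving out each library. All 8 members matched GENCODE M21 and RefSeq. Named beside the members are, per comparison, up to 4 called wider iron genes of smallest adjusted p in each direction, with Hmox1, Ireb2, Aco1, Ncoa4 and Bach1, and the 5 nearest neighbours of Spic and Slc40a1 by Pearson r of log2 CPM (average of at least 2). Vcam1, Timd4, C1qa, Siglec1 and Mrc1 were picked from the macrophage markers after their values were seen. Replicates of each group differed beyond sampling noise (chi-square per degree of freedom 15.3 to 93.5).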

Additional observations from a re-analysis of the deposited data

How the results depend on the processing

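The number of called members moved with the setting. Between the tumoral stages it was 0, but 1 with upper-quartile scaling or library totals alone, 3 without a filter, 3 with DESeq2, 2 with the replicate block and 0 to 2 with 1 library left out. For LPS in WT it was 4, but 5 with DESeq2, 3 with limma-voom or without a filter, 2 from the 4 libraries compared and 1 to 3 with 1 left out; in knockout-labelled cells 0, but 1 with DESeq2 size factors, 2 without a filter, 2 with DESeq2, 1 with the replicate block and 0 to 1. For the knockout label it was 1 unstimulated, but 4 with DESeq2, 2 with the replicate block, 0 from the 4 libraries compared and 0 to 1; under LPS 0, but 1 with DESeq2 and 0 to 1. For the interaction it was 0, but 2 without a filter, 3 with DESeq2 and 0 to 1. Calls over all genes moved too. Between the stages they were 3 as reported, 689 of 18539 without a filter, 311 with DESeq2 and 173 with the replicate block. For LPS in knockout-labelled cells they were 0, but 587 without a filter, 793 with DESeq2 and 321 with the replicate block. For the unstimulated knockout label they were 2357, but 2570 with DESeq2 and 993 of 12751 from the 4 libraries compared. For the interaction they were 585, but 948 without a filter and 1082 with DESeq2. The cause was not tested. Whether like replicate numbers are paired is not known, and the main fits did not pair them. Deviations of like numbers correlated at -0.04 in the tumoral table and at -0.20 to 0.28 between BMDC groups. With 2 libraries per group these values cannot tell whether samples were paired.

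Signs turned only for values not called as reported. With upper-quartile scaling Slc11a1 was -0.04 (LPS in WT) and -0.01 (knockout label, unstimulated). With library totals alone these were -0.18 and -0.08, Slc11a2 between stages -0.07, Spic for the unstimulated knockout label -0.02 and the Steap3 interaction 0.04; the median of all genes then moved to -0.23 for LPS in WT. With 1 library left out the ranges were -0.25 to 0.26 and -0.11 to 0.17 for these Slc11a1 values, -0.10 to 0.14 for Slc11a2 between stages, 0.03 to 0.14 for Spic, -0.67 to 0.56 for the Steap3 interaction, -0.25 to 0.02 for Fth1 with LPS in WT, -0.99 to 0.25 and -0.61 to 0.24 for Slc40a1 and Tfrc with LPS in knockout-labelled cells and -0.15 to 0.66 for Tfrc between labels under LPS. A fit with 1 library in a group assumes that it varies like the others. The lowest count of any member in any library was 56 (Steap3), and replicate spread exceeded counting error.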
